A study of Homo sapiens with 6 samples.

Results

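Transcripts of the polyamine pathway were followed in MDA-MB-231 cells after X-rays. The set holds 10 genes chosen by name, with 1 row each among the 61280 gene rows of the deposited table. It covers the 4 enzymes of synthesis (ODC1, AMD1, SRM and SMS), the antizyme OAZ1 with its inhibitors AZIN1 and AZIN2, and the enzymes of breakdown (SAT1, SMOX and PAOX). MDA-MB-231 is an established human triple-negative breast cancer line. The irradiated group was exposed to 20 Gy and kept in culture for a further 24 h, and the control group was left untreated, with 3 libraries of total RNA in each. No culture time is stated for the controls, so irradiation and a difference in culture time cannot be told apart. The title of the series names spermidine synthase (SRM) as a protein that cancer cells secrete upon radiotherapy. The libraries measure transcripts, not secretion.

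Polyamines are small, positively charged molecules that bind nucleic acids and are needed for growth. Ornithine decarboxylase (ODC1) makes putrescine, and S-adenosylmethionine decarboxylase (AMD1) makes the aminopropyl donor with which SRM turns putrescine into spermidine and SMS turns spermidine into spermine. Antizyme binds ornithine decarboxylase and leads it to the proteasome, and antizyme inhibitors, which resemble ornithine decarboxylase but do not decarboxylate ornithine, hold antizyme back. SAT1 acetylates spermidine and spermine, PAOX oxidises the acetylated forms, and SMOX oxidises spermine directly. Much of this control acts on translation and protein turnover, which transcript levels do not show.

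Values are TPM, a share of each library after division by transcript length, so levels of different genes can be compared. Read depth is unknown, so the agreement of the 3 libraries of a group is the only guide to error. Nothing in the labels says that the replicates are separate cultures, and p-values therefore reflect the variation among these libraries, technical or not. The 5 mesenchymal markers (VIM, CD44, AXL, MSN and SPARC) summed to between 2190 and 2306 TPM in irradiated and between 2643 and 2700 TPM in control libraries, with SPARC called higher, VIM and AXL called lower and the other 2 not called. Of the 5 luminal and epithelial markers, ESR1, PGR and CDH1 stayed at or below 0.40 TPM in all 6 libraries. The other 2 were present and not called: ERBB2 averaged 26.1 TPM in irradiated and 22.5 TPM in control cells, and EPCAM averaged 8.45 TPM in irradiated and 10.3 TPM in control cells, without overlap. Irradiated replicate 1 stood apart in 1 leukocyte gene: PTPRC was at 40.4 TPM there, against 0.11 and 0.12 TPM in the other irradiated libraries and 0.12 to 0.45 TPM in the controls. The T-cell gene CD3E was at 0.05 TPM in that library and listed at 0 in the other 5. The 8 leukocyte, endothelial and muscle markers summed to between 102 and 138 TPM in irradiated libraries and between 63.3 and 70.6 TPM in controls, most of it CD68, a lysosomal protein gene (94.7 ± 2.62 TPM irradiated, 63.2 ± 4.02 TPM control, SD, n = 3 each). Of the 4 tested genes of this list, CD68 was called higher (log2 0.58; limma, adjusted p = 0.00391) and the other 3 were not called. The part of these markers in the results was not tested.

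Of the 10 members, 2 passed the test. SMS, spermine synthase, was 17.0% lower in mean TPM in irradiated cells, and AZIN2, antizyme inhibitor 2, was 38.1% higher. SRM, the enzyme of the title, differed by less than the spread between libraries, as did AMD1 and OAZ1. ODC1, AZIN1, SAT1 and SMOX did not pass either. PAOX reached 1 TPM in only 1 library and was not tested. The test was limma on log2(TPM + 1) over the 14621 genes that reached 1 TPM in 3 or more of the 6 libraries, two-sided, and a gene was called at an adjusted p (Benjamini-Hochberg over all of them) under 0.05. By this rule 10.6% of all tested genes were called, 6.53% higher and 4.07% lower, so 2 of 9 tested members is a small count beside a broad background. The values of the groups did not overlap in 3 of the 9 tested members, and in 34.9% of all tested genes. The median log2 change was -0.02 over the 9 members and 0.03 over all tested genes. In bulk RNA, fewer cells that make a transcript and less transcript per cell cannot be told apart.

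**Figure D1:**
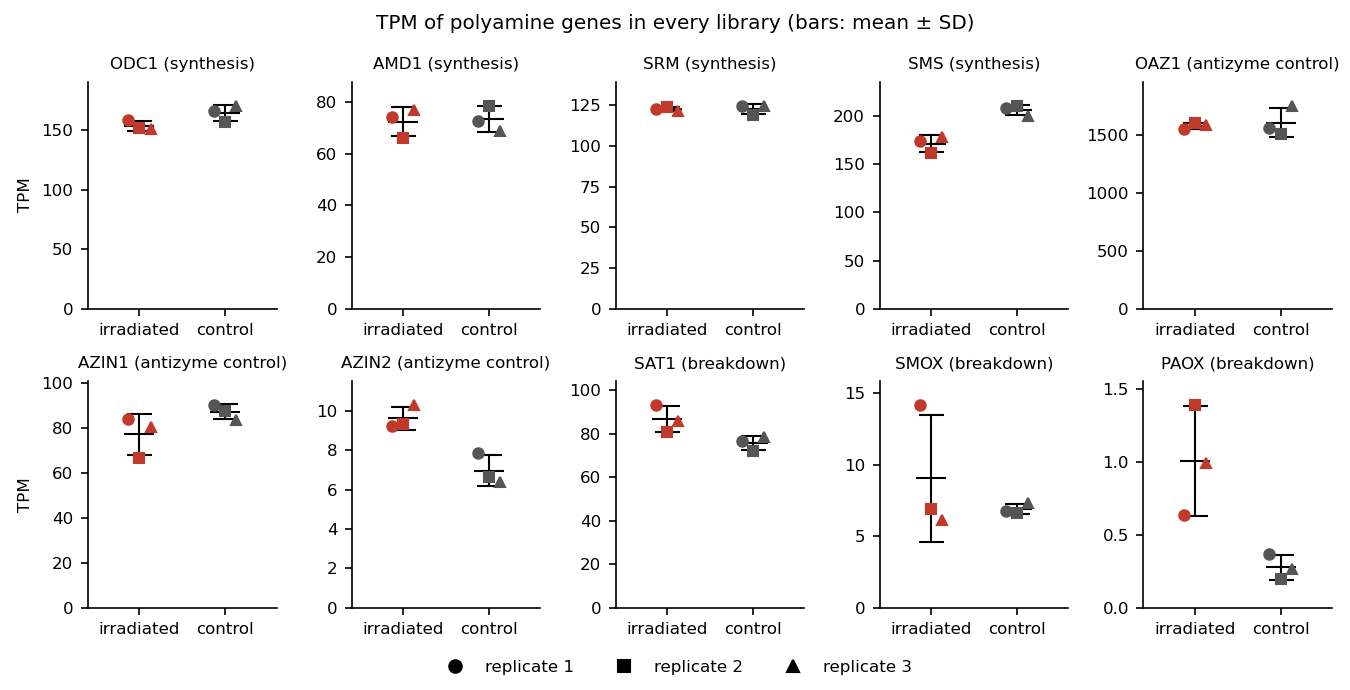
TPM of each of the 10 genes (vertical axis, from 0) in the 3 irradiated (left, red) and 3 control (right, grey) libraries, with symbols for the replicate and bars for the mean ± SD. SMS was lower and AZIN2, SAT1 and PAOX higher in all irradiated libraries than in any control, and SMOX was high in irradiated replicate 1 alone.

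The members ranged widely in abundance, and their order was nearly the same in both groups. OAZ1 was by far the most abundant, at 1577 ± 27.1 TPM in irradiated and 1605 ± 128 TPM in control cells (SD, n = 3 each), above 99.3% of the tested genes in either group. It made up 69.1 ± 1.31% of the summed TPM of the 10 members in irradiated and 68.2 ± 1.75% in control libraries. SMS came second, then ODC1 and SRM, each without overlap with its neighbour within a group. SAT1, AZIN1 and AMD1 followed between 66.1 and 93.2 TPM. In this middle group SAT1 lay above AZIN1 in each of the 3 irradiated libraries and below it in each of the 3 controls. AZIN2 and SMOX lay between 6.12 and 10.3 TPM except for SMOX in irradiated replicate 1, and their ranges overlapped in each group. PAOX was the lowest.

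Of the synthesis enzymes, the transcript of SRM was the steadiest. It was at 123, 124 and 121 TPM in irradiated replicates 1 to 3, against 125, 119 and 125 TPM in control replicates 1 to 3. The irradiated values lay inside the range of the controls. The log2 difference was -0.0023 ± 0.040 (SE; limma, adjusted p = 0.978), and its 95% interval ran from -6.47% to 6.57% on the scale of TPM + 1. A two-sided exact permutation test over the 20 ways to divide the 6 values gave p = 1, where the smallest p it allows is 0.1. SRM (ENSG00000116649; chr1:11054584-11060024, minus strand, hg38) is short and GC-rich, and its longest annotated transcript has 1266 bases and 63.7% GC, more than 94.8% of the tested genes. A correction that removed smooth trends on GC content and transcript length from each library moved its log2 change to -0.16 and its adjusted p to 0.0330 (limma). SRM passed in none of the other 15 alternatives, and the cause of the shift was not tested.

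SMS was the member with the strongest evidence. Its values were 175, 161 and 178 TPM in irradiated replicates 1 to 3, against 209, 211 and 200 TPM in control replicates 1 to 3. Every irradiated library was below every control. The means were 171 ± 8.99 TPM in irradiated and 206 ± 5.55 TPM in control cells (SD, n = 3 each), and the log2 change was -0.27 ± 0.050 (SE; 95% interval -0.38 to -0.15; limma, adjusted p = 0.0205). The exact permutation test gave 0.1, the smallest p possible here. SMS lies at chrX:21940573-21994835 on the plus strand (ENSG00000102172). The call was lost without control replicate 1 (adjusted p = 0.0766) or control replicate 2 (0.0856), with no filter (0.0591), without a mean-variance trend (0.0673) and with a replicate block (0.0676). The log2 change stayed between -0.32 and -0.23 in all 16 alternatives, though those that change only the filter, variance model or block cannot move it.

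ODC1, whose product is the first and most tightly regulated enzyme of the pathway, was at 159, 152 and 151 TPM in irradiated replicates 1 to 3, against 166, 158 and 171 TPM in control replicates 1 to 3. The groups overlapped slightly. The log2 difference was -0.10 ± 0.046 (SE; 95% interval -0.20 to 0.01; limma, adjusted p = 0.219). It passed only after the GC and length correction (log2 -0.16, adjusted p = 0.0485). AMD1 was at 74.0, 66.1 and 77.0 TPM in irradiated and at 72.8, 78.5 and 68.7 TPM in control replicates 1 to 3. Its groups were fully interleaved, with a log2 difference of -0.019 ± 0.074 (SE; limma, adjusted p = 0.892) and a 95% interval from -12.5% to 11.3%. The 4 synthesis transcripts together summed to 530, 503 and 528 TPM in irradiated libraries, against 572, 566 and 564 TPM in controls, and most of that difference was SMS.

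**Figure D2:**
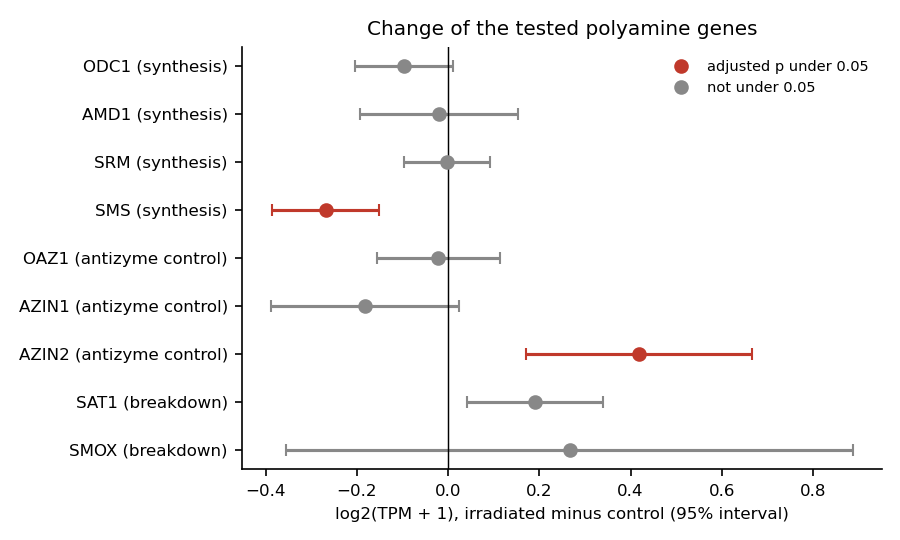
Log2 difference of log2(TPM + 1), irradiated minus control, for the 9 tested genes (points) with 95% intervals from limma (bars), with called genes in red. The interval of SMS lies below 0, those of AZIN2 and SAT1 above 0, and that of SRM is the narrowest and is centred near 0.

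SRM and ODC1 are textbook targets of MYC, a transcription factor that binds the E-box CACGTG, and their start regions are shown because they carry that motif, next to those of SMS, which fell, and SAT1, whose values did not overlap. Each is a 300-base RefSeq window (GRCh38.p14) from 250 bases before to 50 bases after an annotated start, written 5′ to 3′ on the strand of the gene. Capitals mark matches on either strand to the E-box and to a CCAAT box, which reads as ATTGG when it lies on the opposite strand. The TATA box motif TATAAA was searched as well and is in none of these 4.
SRM, chr1:11059969-11060268, minus strand: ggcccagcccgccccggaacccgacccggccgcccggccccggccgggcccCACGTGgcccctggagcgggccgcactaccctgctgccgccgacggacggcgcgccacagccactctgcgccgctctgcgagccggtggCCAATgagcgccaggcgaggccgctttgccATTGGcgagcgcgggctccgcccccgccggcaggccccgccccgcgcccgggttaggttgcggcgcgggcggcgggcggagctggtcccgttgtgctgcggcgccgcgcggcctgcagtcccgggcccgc
ODC1, downstream start, chr2:10447963-10448262, minus strand: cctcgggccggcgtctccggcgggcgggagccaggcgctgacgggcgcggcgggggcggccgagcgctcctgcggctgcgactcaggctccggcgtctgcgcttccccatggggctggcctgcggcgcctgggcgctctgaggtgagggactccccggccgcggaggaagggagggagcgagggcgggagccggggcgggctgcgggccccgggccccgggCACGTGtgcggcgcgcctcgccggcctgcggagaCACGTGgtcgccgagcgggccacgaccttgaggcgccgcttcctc
SMS, chrX:21940459-21940758, plus strand: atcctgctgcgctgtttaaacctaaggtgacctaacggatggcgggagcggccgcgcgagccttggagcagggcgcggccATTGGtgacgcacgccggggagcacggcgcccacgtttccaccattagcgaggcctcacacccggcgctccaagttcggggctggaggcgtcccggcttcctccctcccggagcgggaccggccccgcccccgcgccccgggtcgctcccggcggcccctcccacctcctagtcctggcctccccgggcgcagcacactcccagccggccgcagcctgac
SAT1, chrX:23782923-23783222, plus strand: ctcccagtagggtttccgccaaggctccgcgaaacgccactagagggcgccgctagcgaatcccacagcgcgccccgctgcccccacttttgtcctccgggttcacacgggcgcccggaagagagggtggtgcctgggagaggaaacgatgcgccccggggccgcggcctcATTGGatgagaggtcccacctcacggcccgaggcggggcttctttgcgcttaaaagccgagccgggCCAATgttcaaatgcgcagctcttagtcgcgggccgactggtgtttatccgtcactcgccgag
The window of SRM has CACGTG from position -199, and the downstream window of ODC1 has it from position -29 and again from position 6, counted from the start site as position 1. The window of the upstream ODC1 start (chr2:10448278-10448577, not printed) holds no exact match to any of the 3 motifs. Variants of the motifs were not searched, so a start without a match to TATAAA may still have a TATA box. The E-box is in 7.26% of all 35116 windows, the CCAAT box in 34.6% and the TATA box in 11.5%. Of the 9 windows of members, only that of SRM and the downstream one of ODC1 hold the E-box. The windows of AMD1 and OAZ1, searched but not printed, hold no E-box. That of OAZ1 holds TATAAA and the CCAAT box, and 1 of those of AMD1 holds the CCAAT box. The motifs do not overlap each other in these windows. RefSeq windows were found for 6 of the 10 members, ODC1, AMD1, SRM, SMS, OAZ1 and SAT1, and not for AZIN1, AZIN2, SMOX or PAOX. MYC itself was at 92.6, 94.9 and 99.7 TPM in irradiated and at 103, 103 and 100 TPM in control replicates 1 to 3. The groups did not overlap, and the gene was not called (log2 -0.09 ± 0.045 SE; limma, adjusted p = 0.236) except after the GC and length correction (log2 -0.19, adjusted p = 0.0226).

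In the control of ornithine decarboxylase, OAZ1 showed no difference beyond its spread, at 1547, 1599 and 1587 TPM in irradiated and at 1555, 1509 and 1750 TPM in control replicates 1 to 3. The irradiated values lay within the control range, and the log2 difference was -0.022 ± 0.058 (SE; limma, adjusted p = 0.841; 95% interval -10.3% to 8.13%). Full antizyme is made only when ribosomes shift frame at a stop codon within the message, which polyamines promote, so the abundance of OAZ1 RNA does not give the amount of antizyme. The stretch around that stop (capitals), on the plus strand of chromosome 19, is shown because decoding at this site, which RNA levels do not report, sets whether full antizyme is made.
OAZ1 frameshift site: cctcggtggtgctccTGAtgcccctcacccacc
It was found in 7 annotated OAZ1 transcripts of GENCODE 29, and in the 3 of them that hold the start codon, a reading frame of 68 codons comes before the stop.

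Of the antizyme inhibitors, AZIN2 was higher in irradiated cells. It was at 9.23, 9.35 and 10.3 TPM in irradiated replicates 1 to 3, against 7.88, 6.63 and 6.40 TPM in control replicates 1 to 3. The lowest irradiated value was above the highest control. The means were 9.62 ± 0.580 and 6.97 ± 0.796 TPM for irradiated and control cells (SD, n = 3 each), with a log2 change of 0.42 ± 0.11 (SE; 95% interval 0.17 to 0.67; limma, adjusted p = 0.0485). AZIN2 (ENSG00000142920) lies at chr1:33081104-33120530 on the plus strand. The call was just inside the threshold and was lost with any 1 library left out (adjusted p = 0.0634 to 0.152, log2 change 0.37 to 0.50), with no filter (0.111), after quantile normalization (0.0600), without a trend (0.0527) and with a replicate block (0.117).

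AZIN1, the more abundant antizyme inhibitor, was at 84.3, 66.7 and 80.6 TPM in irradiated replicates 1 to 3, against 90.3, 87.9 and 83.8 TPM in control replicates 1 to 3. The irradiated values reached into the control range, and replicate 2 was the lowest of the 6 libraries. The log2 difference of -0.18 ± 0.088 (SE; 95% interval -0.39 to 0.02) was not called (limma, adjusted p = 0.225), and it was -0.08 without irradiated replicate 2. The AZIN1 locus (ENSG00000155096; chromosome 8, 102826357 to 102893864, minus strand) is overlapped by an antisense RNA gene that the table names MAILR, at 2.64 to 3.31 TPM in irradiated and 1.40 to 3.74 TPM in control libraries. With no strand setting stated, reads of this pair cannot be told apart.

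Of the breakdown enzymes, SAT1 had higher values in irradiated cells but missed the threshold. SAT1, the rate-limiting enzyme of polyamine breakdown, was at 93.2, 81.0 and 86.0 TPM in irradiated replicates 1 to 3, against 76.7, 72.2 and 78.5 TPM in control replicates 1 to 3. The groups did not overlap. The log2 difference was 0.19 ± 0.064 (SE; 95% interval 0.04 to 0.34), with an unadjusted p of 0.0187 and an adjusted p of 0.0997 (limma). SAT1 was uncalled in all 16 alternatives (adjusted p = 0.0569 to 0.271), and its difference was positive in each, including those where it could move. The difference was smallest without irradiated replicate 1, the library with the highest value (log2 0.14; limma, adjusted p = 0.224). The gene (ENSG00000130066) lies at chrX:23783173-23786226 on the plus strand.

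SMOX, spermine oxidase, differed in a single library. It was at 14.2, 6.91 and 6.12 TPM in irradiated replicates 1 to 3, against 6.76, 6.63 and 7.29 TPM in control replicates 1 to 3. Irradiated replicate 1, the library with PTPRC at 40.4 TPM, lay above every other library, and the other values of both groups were interleaved. The log2 difference of 0.27 ± 0.27 (SE; limma, adjusted p = 0.556) became -0.072 (adjusted p = 0.738) without irradiated replicate 1. Whether the PTPRC signal and the SMOX value are related was not tested.

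PAOX, the oxidase of acetylated polyamines, was low, at 0.64, 1.39 and 0.99 TPM in irradiated replicates 1 to 3, against 0.37, 0.20 and 0.27 TPM in control replicates 1 to 3. The groups did not overlap. PAOX did not meet the filter, and in a fit with no filter its log2 difference was 0.63 with an adjusted p of 0.130 (limma). The end of PAOX (ENSG00000148832; chr10:133379234-133391694, plus strand) shares 861 bases with another gene on the same strand, which averaged 1.19 TPM in irradiated and 0.660 TPM in control cells, so part of the reads may belong to either gene. Among copies elsewhere, 9 rows named as pseudogenes of SRM, SMS, OAZ1 or AMD1 had at most 0.38 TPM in any library.

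Across the 16 alternatives, SMS, ODC1, AZIN1, AZIN2 and SAT1 each kept the direction reported above, while SRM, AMD1, OAZ1 and SMOX crossed 0 in at least 1. Changing only the filter, the variance model or the replicate block leaves each log2 change as it is. Only the other alternatives could therefore turn a direction.

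**Figure D3:**
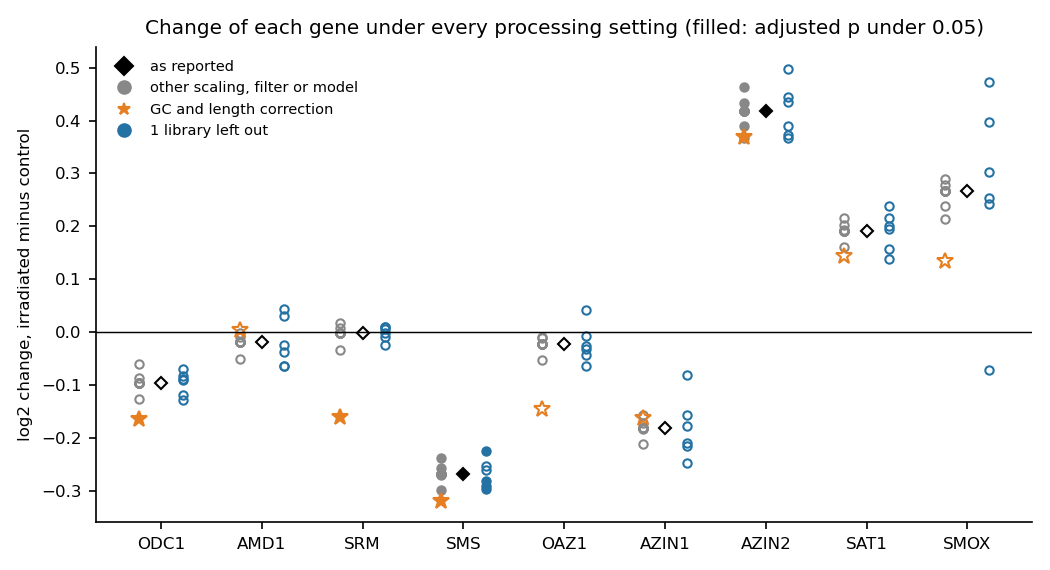
Log2 change of each tested member (vertical axis) as reported (diamonds), under other scalings, filters and models (grey), with the GC and length correction (stars) and with 1 library left out (blue), where filled symbols have an adjusted p under 0.05. SMS and AZIN2 keep their sides of 0 throughout, SRM moves from near 0 to -0.16 under the GC and length correction, and SMOX spans -0.072 to 0.47 with 1 library left out. Changes of only the filter, variance model or replicate block leave each log2 change where it was.

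Ratios within a library do not depend on how libraries are scaled and are given without a test. They do depend on a correction that differs between genes. That for GC and length, not applied to these ratios, moved the log2 change of SRM by -0.16 and that of OAZ1 by -0.12. The summed TPM of synthesis over that of breakdown was 4.91, 5.63 and 5.66 in irradiated replicates 1 to 3, against 6.82, 7.16 and 6.56 in control replicates 1 to 3. The groups did not overlap, and irradiated replicate 1, which had the highest values of both SMOX and SAT1, was the lowest. SMS over SRM, the 2 aminopropyl transferases in sequence, was 1.42, 1.30 and 1.47 in irradiated and 1.67, 1.77 and 1.61 in control replicates 1 to 3. SMS thus outnumbered SRM in all 6 libraries, by less in each irradiated one. SAT1 over SRM was 0.760, 0.655 and 0.709 in irradiated and 0.615, 0.606 and 0.630 in control libraries, without overlap. AZIN1 stood at 5.45%, 4.17% and 5.08% of OAZ1 in irradiated libraries and at 5.81%, 5.82% and 4.79% in controls, which overlapped. AZIN2 stood at 0.597%, 0.585% and 0.648% of OAZ1 in irradiated libraries and at 0.507%, 0.439% and 0.366% in controls, which did not. In every library AZIN2 was thus the smaller of the inhibitors by a wide margin. SRM and OAZ1 hardly differed between the groups, so ratios to them largely repeat the separations of SMS, SAT1 and AZIN2 given above. The values of 34.9% of all tested genes do not overlap either.

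**Figure D4:**
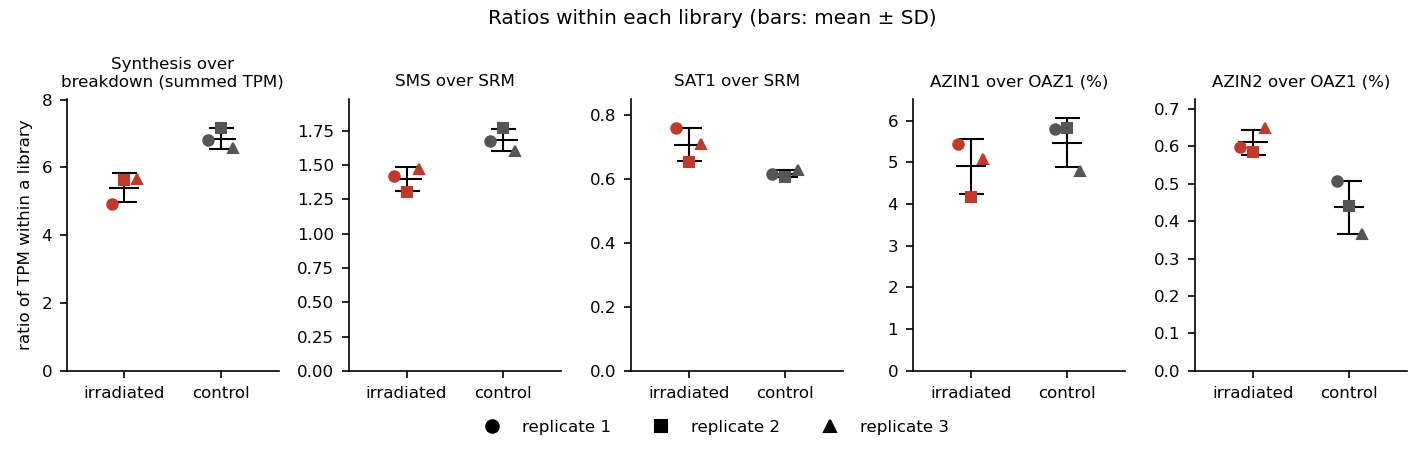
Ratios of TPM within each library (vertical axes, from 0) for irradiated (left, red) and control (right, grey) cells, with symbols for the replicate and bars for the mean ± SD. Synthesis over breakdown and SMS over SRM were lower, and SAT1 over SRM and AZIN2 over OAZ1 higher, in all 3 irradiated libraries than in any control, while AZIN1 over OAZ1 overlapped.

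Among 47 other genes around the pathway, 37 were tested, 2 were higher and 4 lower, and 31 did not pass, with a median log2 change of -0.03. Over all tested genes 6.53% were called higher and 4.07% lower, and with so few called genes the lists are described by their counts only. Of the 9 tested genes of transport, 1 was higher and 1 lower. CAV1, which encodes the main protein of caveolae, fell to 142 ± 5.45 TPM in irradiated cells, against 198 ± 8.97 TPM in controls (SD, n = 3 each; log2 -0.48 ± 0.050 SE; limma, adjusted p = 0.00466). It was the only one of these 6 called genes to pass in all 16 alternatives. SLC18B1, a vesicular polyamine transporter, was at 11.9 ± 0.674 TPM in irradiated and 9.32 ± 0.271 TPM in control cells (log2 0.33 ± 0.082 SE; limma, adjusted p = 0.0476). ATP13A2, which moves polyamines out of lysosomes, was at 52.6 ± 2.26 TPM and 47.4 ± 2.40 TPM in irradiated and control cells and did not pass (limma, adjusted p = 0.155).

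Of 3 other antizyme and acetyltransferase genes, SAT2, a paralog of SAT1, was higher, at 35.2 ± 2.06 TPM in irradiated and 27.6 ± 2.02 TPM in control cells (SD, n = 3 each; log2 0.34 ± 0.075 SE; limma, adjusted p = 0.0329). OAZ2, the second antizyme gene, was at 216 ± 5.38 TPM in irradiated and 206 ± 12.1 TPM in control cells (limma, adjusted p = 0.450). Spermidine also supplies the hypusine residue of the translation factor eIF5A, through DHPS and DOHH. None of the 4 genes of that list passed. EIF5A was at 899 ± 42.4 TPM in irradiated and 995 ± 40.4 TPM in control cells, with no overlap (log2 -0.15 ± 0.049 SE; limma, adjusted p = 0.101). It passed after quantile normalization (adjusted p = 0.0335) and after the GC and length correction (log2 -0.28, adjusted p = 0.00647). DHPS was at 66.7 ± 5.15 TPM and 68.1 ± 4.07 TPM in irradiated and control cells (limma, adjusted p = 0.814).

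The synthases release methylthioadenosine, which MTAP cleaves as the first step of methionine salvage. MTAP was listed at 0.89, 0 and 0.01 TPM in irradiated replicates 1 to 3, against 0.01, 0.01 and 0 TPM in control replicates 1 to 3. The transcript was thus nearly missing from 5 libraries, and irradiated replicate 1 was the exception, as for PTPRC and SMOX. Of the 7 tested genes of the methionine cycle and salvage, ENOPH1, an enzyme of the salvage chain, fell to 43.8 ± 3.21 TPM in irradiated cells, against 53.2 ± 1.00 TPM in controls (SD, n = 3 each; log2 -0.28 ± 0.064 SE; limma, adjusted p = 0.0375). The other 6 did not pass.

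Of 12 tested genes of arginine, ornithine and proline metabolism, 2 fell and none rose, beside 4.07% called lower and 6.53% called higher over all tested genes. ALDH18A1, which turns glutamate into the precursor of ornithine and proline, was at 53.6 ± 1.23 TPM in irradiated and 65.3 ± 1.88 TPM in control cells (SD, n = 3 each; log2 -0.28 ± 0.048 SE; limma, adjusted p = 0.0167). PYCR1, which completes proline synthesis, was at 99.8 ± 5.63 TPM in irradiated and 119.9 ± 4.63 TPM in control cells (log2 -0.26 ± 0.056 SE; limma, adjusted p = 0.0300). SLC7A1, an importer of arginine, was at 28.9 ± 4.41 TPM and 38.3 ± 1.63 TPM in irradiated and control cells and missed the threshold (limma, adjusted p = 0.0578). PYCR3 and ASL of the same list were higher in irradiated cells, without overlap, and were not called either. PYCR3 was at 15.4 ± 1.28 TPM in irradiated and 12.45 ± 1.25 TPM in control cells (limma, adjusted p = 0.111). ASL was at 36.1 ± 2.85 TPM in irradiated and 30.8 ± 1.26 TPM in control cells (limma, adjusted p = 0.0934). The median log2 change of the 12 genes was -0.08. ARG2, an arginase that releases ornithine, and OAT, the ornithine aminotransferase, had log2 differences of -0.09 and 0.05. MAX, the partner of MYC, had a log2 difference of -0.27 ± 0.081 (SE) and did not pass (limma, adjusted p = 0.0731) except after median-ratio scaling, quantile normalization or the GC and length correction (adjusted p = 0.0347, 0.0429 and 0.0208). The calls of SAT2, SLC18B1, ENOPH1, ALDH18A1 and PYCR1 were each lost in 5 to 10 of the 16 alternatives (adjusted p up to 0.117, 0.152, 0.122, 0.0644 and 0.111), with no change of direction where the log2 change could move. Among them were the fits without irradiated replicate 3, without control replicate 1 and without control replicate 2 for all 5, without control replicate 3 for all but SAT2, without irradiated replicate 1 for all but ALDH18A1, and without irradiated replicate 2 for SAT2.

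**Figure D5:**
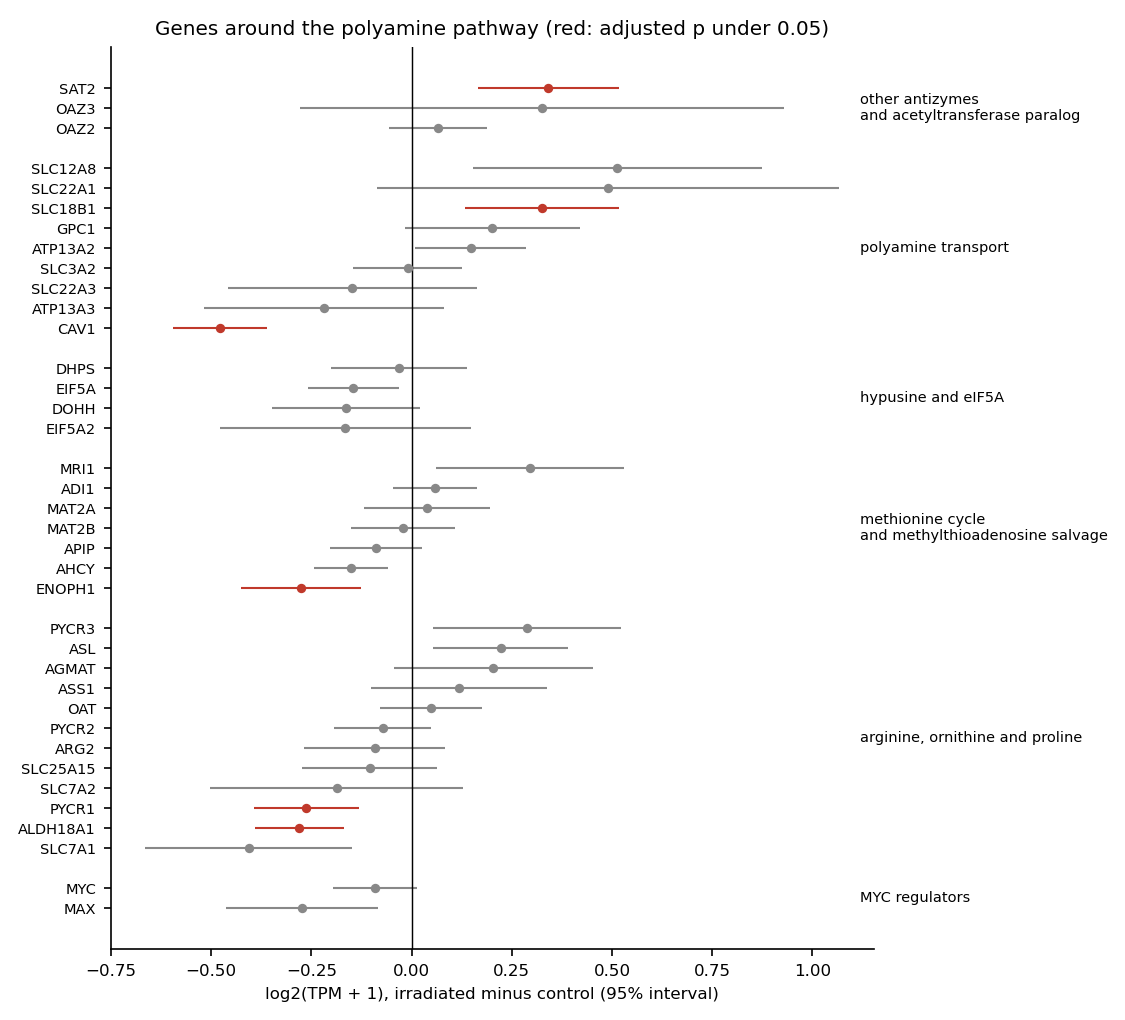
Log2 difference of log2(TPM + 1), irradiated minus control, with 95% limma intervals, for the 37 tested genes around the polyamine pathway, grouped by list, with called genes in red. CAV1, ENOPH1, ALDH18A1 and PYCR1 lie below 0 and SAT2 and SLC18B1 above 0 among the called genes.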

How the data were processed

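Per the labels' protocols, libraries were made with a TruSeq RNA kit from total RNA of MDA-MB-231 cells. The submitters' processing notes name HISAT2, StringTie, RSEM and hg38, without roles or versions, and no strand setting is stated there. The authors deposited TPM per gene, and every column has the same sum within rounding, so no read depth is known. No scaling between libraries is recorded.

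Groups came from the sample titles. At most 0.479% of tested values were identical between libraries of a group, so 6 samples were kept. Genes that reached 1 TPM in 3 or more libraries (14621 of 61280) were compared on log2(TPM + 1), a scale that understates changes of low genes, with limma 3.58.1 in R 4.3.3 (eBayes with trend, 4 residual and 3.39 prior degrees of freedom) and Benjamini-Hochberg adjustment. Members, gene lists and the correction for GC and length were chosen with earlier results of these data known. All members are named, and of each pathway list up to 4 called genes with the largest change, or else the 2 most abundant, with MTAP and MYC. The cell type markers printed singly and ATP13A2, OAZ2, SLC7A1, PYCR3, ASL, ARG2 and OAT are named beside that rule, chosen after seeing their values. Positions, GC content and transcript length (longest transcript) came from GENCODE 29, on the assembly of hg38, and start windows from RefSeq. The pipeline was tested on simulated data. The simulated log2 changes were larger than those reported here, so recovery of changes as small as these was not tested.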

Additional observations from a re-analysis of the deposited data

How the results depend on the processing

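Of all tested genes 955 were called higher and 595 lower, against 778 higher and 852 lower after median-ratio scaling and 844 higher and 1477 lower after the GC and length correction, which covered 97.4% of tested genes. The total of 1550 was 497 with no filter, 993 without a trend and 306 to 1390 with 1 library left out, the lowest without control replicate 2. The 2 called members became 0 with no filter or without a trend, 1 after quantile normalization, 4 after the GC and length correction (SMS, AZIN2, SRM and ODC1), and 0 or 1 with 1 library left out. A fit on 5 libraries has less power. The log2 change of SRM, near 0 as reported, was 0.017 after quantile normalization, 0.0083 without mitochondrial genes, -0.16 with the GC and length correction and -0.024 to 0.0088 with 1 library left out. Other uncalled genes changed sign too: AMD1 (0.0041 with the GC and length correction, -0.065 to 0.043 with 1 library left out), OAZ1 (-0.065 to 0.042), SMOX (-0.072 to 0.47) and DHPS (-0.069 to 0.033). The members' median lay between -0.037 and 0.0087 with 1 library left out. The cause of these shifts was not tested. The GC and length correction moved SRM by -0.16, OAZ1 by -0.12 and SMOX by -0.13, the members with the highest GC content among those tested. The values showed no sign that replicate numbers pair the samples, though the labels do not say whether they do. Deviations of same-numbered libraries correlated at 0.031, -0.055 and -0.025, and only 2 of 6 libraries correlated best with their own number. With a replicate block 362 genes and 0 members were called. The depth is unknown, so no detection limit can be given for genes near 0 TPM such as PAOX and MTAP.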
